A study of Mus musculus with 96 samples.

Results

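The transient receptor potential (TRP) superfamily was examined in neurons of the mouse lateral superior olive (LSO), through 9 genes: Mcoln1, Pkd2l2, Trpm2, Trpm6, Trpm7, Trpv2, Trpc1, Trpc4 and Trpc5. They were taken by gene symbol from a table of 38887 genes. They are the TRP genes that the study of these libraries listed as expressed, so that their presence as such is no result here. Trpc4 was nevertheless at 0 in every deposited library. Of the other 19 genes of the superfamily's 28, 18 were in the table. The libraries were made by Patch-seq, in which a neuron is recorded through a patch pipette in an acute slice and its cytoplasm is then drawn into the same pipette and sequenced. The neurons came from juvenile C57BL/6J mice of both sexes, without genetic modification or drug treatment named in the labels, and were grouped by firing pattern. Principal neurons (pLSOs), which send ascending projections, fired either only at the onset of a current step (Onset, n = 41) or throughout it (Sustained, n = 11). Lateral olivocochlear neurons (LOCs), which project back to the cochlea, fired with a delay (n = 28). Negative controls (n = 8) were pipettes that had touched the slice and were withdrawn without a cell. A further 6 neurons and 2 negative controls were left out because their label and their place in the study's supplementary tables did not match. The labels name no animal for any library, so each group counts as 1 sample, no test between groups was possible, and all intervals and standard deviations (SD) below describe single cells.

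TRP channels are cation channels, most of them permeable to calcium, and are known as sensors of chemical, mechanical and metabolic state. The canonical TRPC channels open downstream of receptors that activate phospholipase C. The melastatin (TRPM) family includes channels fused to enzyme domains, and the mucolipin (TRPML) channels work in the membranes of endosomes and lysosomes rather than at the cell surface. In the developing LSO, calcium influx through TRP-like channels opened by metabotropic glutamate receptors has been described for high-frequency stimulation.

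Values are in TPM (transcripts per 1e6), a read count divided by a gene length and scaled to the same total in every library, which was deposited in whole numbers. A transcript was called detected at 1 TPM or more. In the 80 neurons, a median of 2495.5 genes was detected (range 1175 to 6276), against a median of 821 in the negative controls. Of the class markers, which the study chose on these same libraries, pLSOs had a median of 5 of 6 pLSO markers and 0 of 6 LOC markers, and LOCs had 1 and 5. Both classes had a median of 7 of 8 general neuron markers. The negative controls had a median of 4 of 8 neuron markers, so neuronal transcripts were present in them too.

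The most widespread of the 9 genes was Trpm7, followed at a distance by Pkd2l2, Mcoln1 and Trpm2. Trpm7 was detected in 40 of 80 neurons (50%, exact 95% binomial interval 38.6 to 61.4%), Pkd2l2 in 17 (21.3%), and Mcoln1 and Trpm2 in 16 each (20%). Trpc5 was detected in 7 neurons, Trpv2 in 6, Trpc1 in 5 and Trpm6 in 4. Trpc4 was listed at 0 in all 96 libraries. Of the 9 genes, 8 were listed at 0 in every negative control, where 0 of 8 allows a share of up to 37.5%, and 1, Trpc5, was present in a single negative control. These limits and all intervals cover counting error only.

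**Figure D1:**
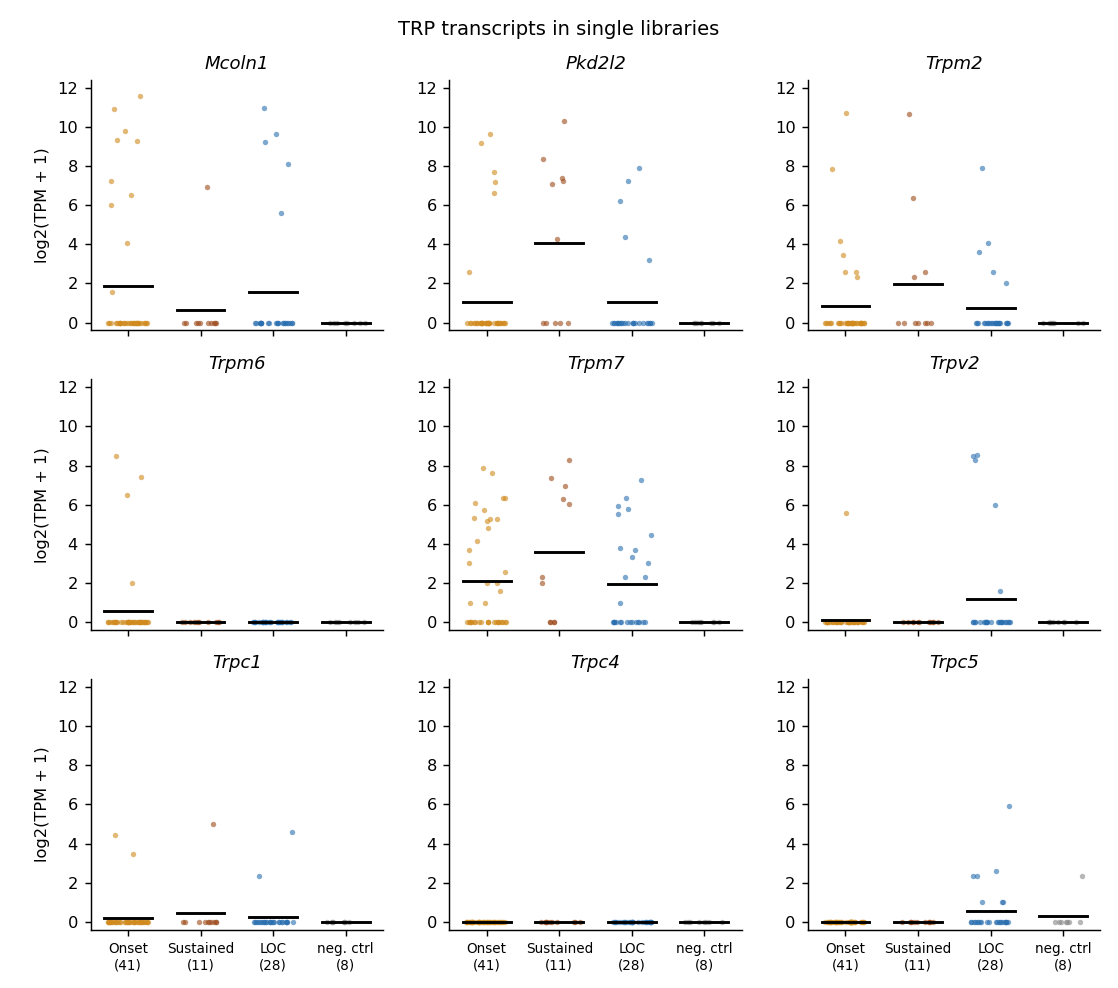
Deposited level of each TRP member, as log2(TPM + 1), in every library used, by firing pattern (41 Onset, 11 Sustained, 28 LOC) and in 8 negative controls. Each point is a library and each black line the mean of the log2 values. Trpm7 is above 0 in 40 neurons spread over all 3 neuron groups, Trpc5 is above 0 only in LOCs and 1 negative control, and Trpc4 is at 0 throughout.

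Trpm7, on chr2:126791565-126876230 of GRCm38, encodes a channel fused to a kinase that conducts magnesium, calcium and zinc and is present in most tissues. It was detected in 20 of 41 Onset neurons (48.8%), 7 of 11 Sustained neurons (63.6%) and 13 of 28 LOCs (46.4%), and the intervals of the 3 shares overlapped. Over the 20 Onset neurons in which it was detected, the level ranged from 1 to 237 TPM with a median of 31 TPM. The 7 Sustained neurons had 3, 4, 65, 78, 125, 161 and 316 TPM. In the 13 LOCs it ranged from 1 to 150 TPM with a median of 13 TPM. The ranges thus overlapped almost entirely, while the mean over all cells of a group was 22.9 TPM in Onset neurons, 68.4 TPM in Sustained neurons and 16.5 TPM in LOCs. The mean of pLSOs was 1.97 times that of LOCs (32.5 ± 65.4 TPM against 16.5 ± 33.9 TPM, SD over 52 and 28 neurons), and 2.33 times without the highest neuron of each class. Sustained neurons stood 2.99-fold above Onset neurons in mean Trpm7, and 2.49-fold without the highest neuron of each.

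Trpm6, on chr19:18749983-18892511 of GRCm38, encodes the close relative of TRPM7 and is known for magnesium uptake in gut and kidney. It was restricted to 4 Onset neurons (9.76%), with 3, 90, 170 and 358 TPM. It was listed at 0 in all 11 Sustained neurons, which allows a share of up to 27.3%, and in all 28 LOCs, which allows up to 10.7%. The upper limit for LOCs lies above the share in Onset neurons, so a difference in detection was not resolvable at this number of cells.

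Trpm2, on chr10:77907722-77970563 of GRCm38, encodes a calcium-permeable channel opened by ADP-ribose and linked to oxidative stress. It was detected in 7 Onset neurons (17.1%), 4 Sustained neurons (36.4%) and 5 LOCs (17.9%). The Onset values were 4, 5, 5, 10, 17, 226 and 1690 TPM, the Sustained values 4, 5, 81 and 1583 TPM, and the LOC values 3, 5, 11, 16 and 233 TPM. In each group a single neuron held most of the sum. Mean Trpm2 reached 69.8 TPM over the pLSOs but 9.57 TPM over the LOCs, a ratio of 7.29, and without the highest neuron of each class 38.04 and 1.30 TPM. On the log2(TPM + 1) scale, where a single high neuron weighs less, the mean of pLSOs was higher by only 0.35. The share of neurons with Trpm2 differed by 3.3 percentage points between pLSOs (21.2%) and LOCs (17.9%).

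Mcoln1, on chr8:3500457-3515232 of GRCm38, encodes TRPML1, the calcium and iron channel of late endosomes and lysosomes. It was detected in 10 Onset neurons (24.4%), 1 Sustained neuron (9.09%) and 5 LOCs (17.9%). The Onset values were 2, 16, 64, 90, 150, 616, 636, 889, 1921 and 3037 TPM, the Sustained value was 122 TPM, and the LOC values were 48, 268, 603, 779 and 1955 TPM. The LOC values all lay within the span of the pLSO values. Mean Mcoln1 was 145 TPM over the pLSOs and 130.5 TPM over the LOCs, a ratio of 1.11 that became 1.40 without the highest neuron of each class. The Sustained mean depended on a single library: it was 11.1 TPM over the 11 Sustained neurons used and 223 TPM over the 12 so labelled, because the left-out neuron cell_54 held 2557 TPM.

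Pkd2l2 encodes a polycystin-type protein best known from testis. It was detected in 6 of 11 Sustained neurons (54.5%, interval 23.4 to 83.3%) and in 6 of 41 Onset neurons (14.6%, interval 5.57 to 29.2%). The Sustained values were 18, 136, 150, 165, 330 and 1246 TPM, the Onset values 5, 97, 143, 203, 583 and 779 TPM, and the values of 5 LOCs (17.9%) were 8, 20, 74, 148 and 234 TPM. The ranges of the values above 0 overlapped in the 3 groups, and the intervals of the Sustained and Onset shares overlapped too. The Sustained share of Pkd2l2 was higher by 39.9 percentage points, a size for which no share over all genes was computed. A difference of at least 10 percentage points in this direction was shown by 31.3% of all 10319 genes compared. It was shown by 3 of 8 members (Pkd2l2, Trpm2 and Trpm7). A difference of at least 10 percentage points in the direction of Onset was shown by 12.5% of genes and by 1 member (Mcoln1). The mean of Pkd2l2 was 4.29-fold higher in pLSOs than in LOCs (74.1 against 17.3 TPM), and 5.52-fold higher without the highest neuron of each class. Of the exonic bases of Pkd2l2, 10.9% are shared with the neighbouring gene Fam13b in Gencode vM21, while the study counted reads on an earlier release. How reads on shared bases were counted is not given in the sources used here. Mcoln1, Trpm6, Trpm7, Trpv2 and the 3 Trpc members shared no exonic base with another gene in Gencode vM21, and Trpm2 shared 0.73% of its exonic bases.

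Trpv2, on chr11:62574486-62600515 of GRCm38, encodes a calcium-permeable channel that is known from sensory neurons and from immune cells. It was detected in 5 of 28 LOCs (17.9%, interval 6.06 to 36.9%) and 1 of 52 pLSOs (1.92%, interval 0.05 to 10.3%). The LOC values were 2, 63, 312, 361 and 368 TPM and the single pLSO, an Onset neuron, had 46 TPM. Thus 3 LOCs stood far above the only pLSO. The mean was 39.5 ± 109 TPM in LOCs (27.3 TPM without the highest neuron) and 0.88 TPM in pLSOs, which without that neuron were all listed at 0.

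Trpc5, on chrX:144381671-144688180 of GRCm38, encodes a canonical TRP channel of the brain and, with Trpc4 and Trpc1, can form mixed channels. It was detected in 7 of 28 LOCs (25%, interval 10.7 to 44.9%) and in none of 52 pLSOs, which allows a share of up to 5.77%. The 7 LOC values were 1, 1, 1, 4, 4, 5 and 59 TPM. All pLSO values were listed at 0, so among the neurons the transcript was seen in LOCs alone. A single negative control held 4 TPM, within the span of the LOC values, in 1 of 8 controls (12.5%, interval 0.32 to 52.7%). The part of RNA from outside the recorded cell in the LOC values was not tested. Trpc1, the partner subunit, on chr9:95705082-95750375, was detected in 2 Onset neurons (10 and 21 TPM), 1 Sustained neuron (31 TPM) and 2 LOCs (4 and 23 TPM), and the shares of 5.77% in pLSOs and 7.14% in LOCs had overlapping intervals. A library with both Trpc1 and Trpc5 was seen once, the LOC cell_62. Among the remaining Trpc genes, Trpc6 was listed at 0 in all 96 libraries and Trpc7 had 53 TPM in 1 LOC.

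**Figure D2:**
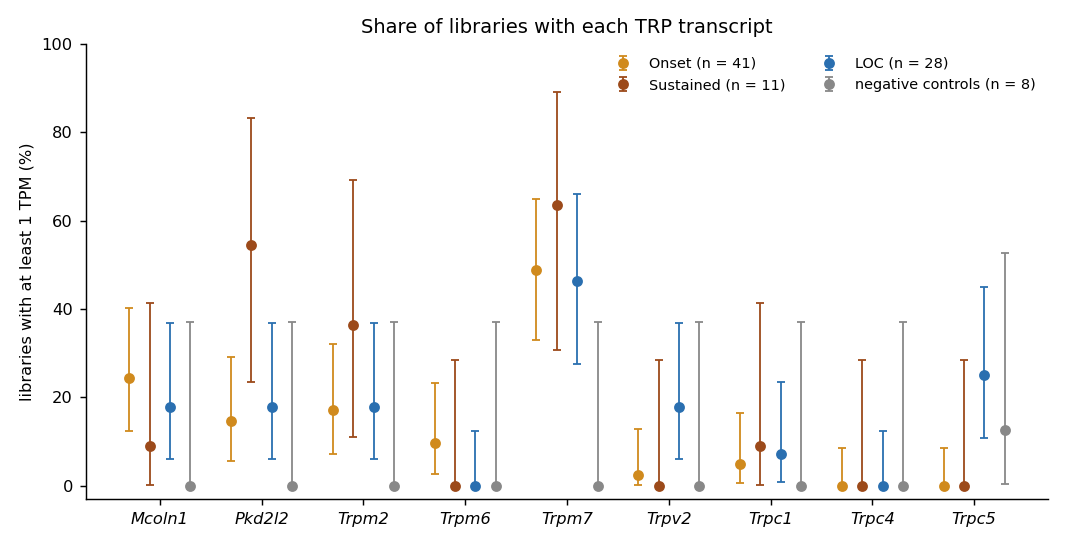
Percentage of libraries with at least 1 TPM of each TRP member in Onset, Sustained and LOC neurons and in negative controls, with exact 95% binomial intervals over libraries. The intervals of the groups overlap for most members. Trpc5 and Trpv2 have their highest neuronal share in LOCs (25% and 17.9%), and Pkd2l2 its highest in Sustained neurons (54.5%).

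Counted over the family, 3 of the 8 members that were detected in at least 5% of the neurons had a mean at least 2-fold higher in pLSOs (Pkd2l2, Trpm2 and Trpm6) and 2 had one at least 2-fold higher in LOCs (Trpv2 and Trpc5). Any mean above 0 against a class listed at 0 counts as past 2-fold here. Of the 10319 genes of the table with the same detection, 30.9% were at least 2-fold higher in pLSOs and 21.9% in LOCs, so the members' counts are near those of other genes. With and without the highest neuron of each class, the same 3 and 2 members stayed past 2-fold, as did 30.0% and 15.7% of all genes. Trpm6 and Trpc5 entered the count only through the class in which they were found. Trpv2, with 5 LOCs and 1 pLSO, passed the detection filter only through its LOCs. The members counted as higher in LOCs, here and in detection below, were thus in part set by this filter. Between the pLSO types, 4 members were at least 2-fold higher in Sustained neurons (Pkd2l2, Trpm2, Trpm7 and Trpc1, against 23.7% of genes) and 3 in Onset neurons (Mcoln1, Trpm6 and Trpv2, against 35.2%). Only Pkd2l2 and Trpm7 stayed at least 2-fold higher in Sustained neurons also without the highest neurons (12.6% of genes), and only Mcoln1 and Trpm6 in Onset neurons (33.2%). In detection, Trpv2 and Trpc5 were at least 10 percentage points more frequent in LOCs, as were 12.8% of genes, and no member was so in pLSOs, against 20.2% of genes. The SD over neurons exceeded the mean in all 34 combinations of member and group with a mean above 0, so no neighbours in any order of mean levels differed beyond their spread.

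The order of the members by mean TPM over the 80 neurons was Mcoln1 (140.0 TPM), Pkd2l2 (54.2), Trpm2 (48.7), Trpm7 (26.9), Trpv2 (14.4), Trpm6 (7.76), Trpc1 (1.11), Trpc5 (0.94) and Trpc4 (0). The 3 genes at its head lie in the earliest rows of the table among the members, and the scale of the values was therefore examined. In a TPM table, the value of 1 read is set by the length of the gene. In these libraries low values were whole multiples of a step, and the step fell down the table, row by row, in place of following the length of each gene. The length by which a row had been divided was read from the steps in the first 1700 rows, and in later rows it was estimated from the sorted gene lengths, calibrated on the values of 1 read in the 2 shallowest negative controls. It was 4 bases for Mcoln1, 6 for Trpm2, 7 for Pkd2l2, 15.0 for Trpv2, 49.4 for Trpm6, 144 for Trpm7, 173 for Trpc4, 350.3 for Trpc1 and 561 for Trpc5. That these lengths follow the order of the rows was set by the method. Lengths were not allowed to fall down the first 1700 rows and came from sorted lengths after them. The exons of these genes span 4485 bases (Trpv2) to 12459 bases (Trpm2). With those lengths, 97.7% of 2081 low values in rows up to 5000 and 99.6% of 275 in rows up to 10000 lay within 0.2 of a whole number of reads. They were sought in 94 libraries not used to set these rows, but only where 1 read was worth at least 5 TPM. In the neuron of median depth 1 read of Trpm7 was worth 0.28 TPM, so libraries of that depth gave no value near its row. In rows 10001 to 15000, where Trpc5 lies, only the 2 shallowest controls gave such values: with the lengths calibrated on either of them, 97.7% of 128 and 100% of 39 low values of the other were whole, and the length for Trpc5 was 578 and 571 bases.

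The scale was also checked on ribosomal protein genes, whose transcripts are known to be abundant in all cells. Their median mean level in the 80 neurons was 846 TPM for the 16 genes in the first 5000 rows and 5.55 TPM for the 67 genes in later rows. After each value was multiplied by the length of its row, divided by the gene's own exonic length less 80 bases and scaled again to the same total per library, the medians were 289 and 242. Levels of different genes are therefore compared below on this rescaled measure. Ratios between groups moved less, from 4.29 to 4.79 for Pkd2l2, but from 7.29 to 12.7 for Trpm2.

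**Figure D3:**
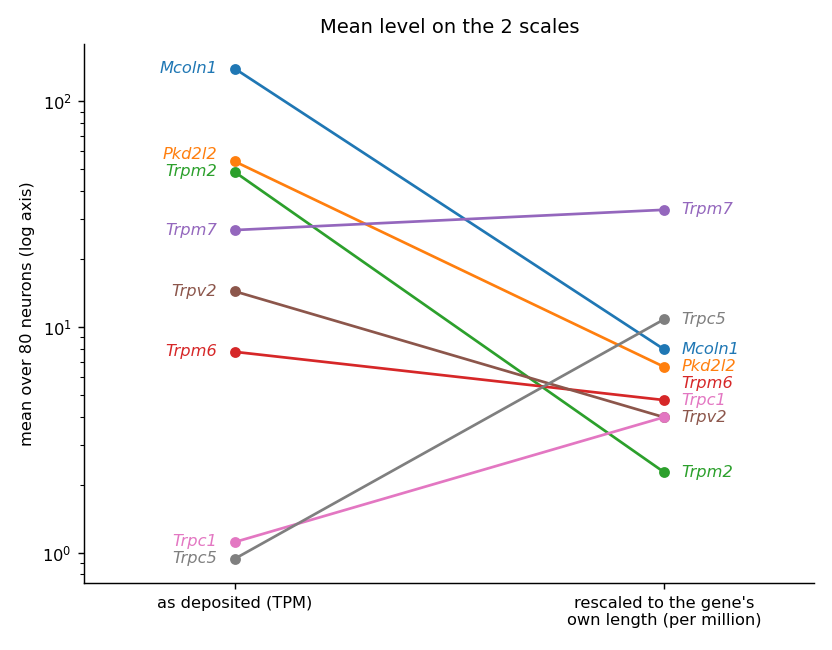
Mean level of 8 TRP members over 80 neurons, on a log axis, as deposited in TPM (left) and rescaled to each gene's own exonic length (right, same unit). Lines join the same gene. Mcoln1 falls from 140.0 to 7.96, Trpm7 moves from 26.9 to 33.1, and Trpc5 goes from 0.94 to 10.8, from the lowest of the 8 to the second highest. Trpc4, at 0 on both scales, is not drawn.

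On the rescaled measure Trpm7 was the most abundant TRP transcript over the 80 neurons (33.1 ± 68.7, 28.3 without the highest neuron). Trpc5 (10.8), Mcoln1 (7.96) and Pkd2l2 (6.66) came next, then Trpm6 (4.74), Trpc1 (3.98), Trpv2 (3.98) and Trpm2 (2.27). Trpc5 rested on 1 LOC and fell to 1.86 without it. In pLSOs the rescaled mean was 41.4 for Trpm7, 9.21 for Pkd2l2, 8.69 for Mcoln1, 7.30 for Trpm6, 4.46 for Trpc1 and 3.35 for Trpm2. In LOCs it was 30.9 for Trpc5, 17.6 for Trpm7, 10.8 for Trpv2, 6.59 for Mcoln1, 3.11 for Trpc1, 1.92 for Pkd2l2 and 0.26 for Trpm2. Without the highest LOC, Trpm7 was first with 13.1, followed by Trpv2 (7.11), Trpc5 (5.45) and Mcoln1 (3.30). Trpc1 and Trpc5, which were the lowest in TPM of the detected members, thus ranked among the others in LOCs on this scale, while Trpc4, and Trpc5 in pLSOs, stayed at 0. Rescaled, the mean of Trpm7 in pLSOs was 2.35 times that in LOCs, and 2.61 times without the highest neuron of each class.

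The same steps gave an estimate of the reads behind each value. Among the 16 neurons with Trpm2, 9 held a single read, and only 5 held 10 reads or more (18 to 288). The median was 1 read. For Mcoln1, 12 of 16 neurons held 10 reads or more, with a median of 23.5 and a highest value of 617. For Pkd2l2 these were 12 of 17 neurons, a median of 26 and a highest value of 181. Trpm7 values rested on a median of 90.5 reads (2 to 2005), with 35 of 40 at 10 reads or more. In the 7 LOCs with Trpc5 there were 6 to 421 reads with a median of 52. In a neuron of median depth 6.89 reads of Trpc5 were needed for a value above 0, so these numbers cannot be set against those of Trpm2. The negative control with Trpc5 held 5 reads. The 5 neurons with Trpc1 held 43 to 274 reads, the 6 with Trpv2 held 1 to 145, and the 4 with Trpm6 held 2 to 572.

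**Figure D4:**
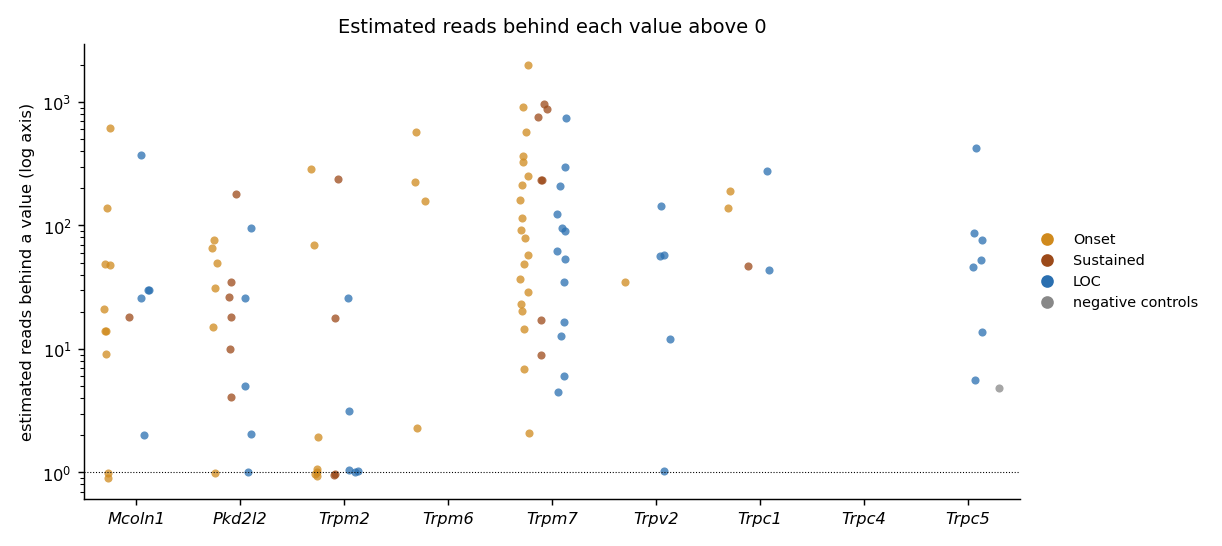
Estimated number of reads behind each value above 0, on a log axis, for each TRP member and group, with 1 read as a dotted line. Most Trpm2 values lie at 1 read, while every Trpc1 value rests on 43 reads or more and every Trpc5 value in a LOC on 6 or more. In a neuron of median depth, a few reads of Trpc1 or Trpc5 round to 0 TPM, so the low ends are not comparable between genes.

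The rounding to whole TPM also set what could be detected. In the neuron of median depth, 1 read of Mcoln1 was worth 10.2 TPM and any read was seen, whereas 1 read of Trpc5 was worth 0.07 TPM and 6.89 reads were needed to reach the 0.5 TPM that rounds to 1. The corresponding numbers were 4.30 reads for Trpc1, 2.13 for Trpc4 and 1.77 for Trpm7. A value listed at 0 therefore leaves room for a few reads of the Trpc genes, and their shares are lower bounds at this rounding. The estimated total was 166130 to 2914737 reads in neurons, with a median of 854153 in pLSOs and 550131 in LOCs, and 2381 to 355606 in the negative controls, of which 7 of 8 were below 150000 reads. With every neuron brought down to 150000 estimated reads, the expected share with at least 1 read was 49.4% of pLSOs and 43.9% of LOCs for Trpm7, and 10.5% and 6.54% for Trpm2. It was 0% and 24.8% for Trpc5, and 1.90% and 14.7% for Trpv2. No neuron had to be left out at this depth. Values listed at 0 entered as 0 reads, so the 0% for Trpc5 in pLSOs was fixed in advance. Reads lost to rounding are not counted, and pLSOs had the higher median depth, so the classes cannot be compared for Trpc5 in this way. Counting only neurons with 10 or more estimated reads, Trpc5 was present in 21.4% of LOCs and no pLSO, and Trpm2 in 7.69% of pLSOs and 3.57% of LOCs. The absence of Trpc5 from pLSOs was again fixed by the values listed at 0.

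A neuron had on average 1.39 ± 1.08 of the 9 members (SD over 80 neurons). The mean was 1.22 ± 0.96 in Onset neurons, 1.73 ± 0.90 in Sustained neurons, 1.33 ± 0.96 in all pLSOs and 1.50 ± 1.29 in LOCs, and these means differed by less than 1 SD. No member was detected in 15 neurons (18.8%), exactly 1 member in 37 (46.3%), and 4 or 5 members in 1 LOC each. The 2 LOCs with most members were cell_62 (Trpm2, Trpm7, Trpv2, Trpc1 and Trpc5) and cell_58 (Mcoln1, Trpm2, Trpm7 and Trpv2), and neither had an unusual number of detected genes (2031 and 1927). Across the 80 neurons, the number of members rose weakly with the number of detected genes (Spearman's rho = 0.33) and hardly with the estimated reads (rho = 0.07). These are descriptions over cells that share their libraries' depth. The negative controls had a mean of 0.13 members.

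**Figure D5:**
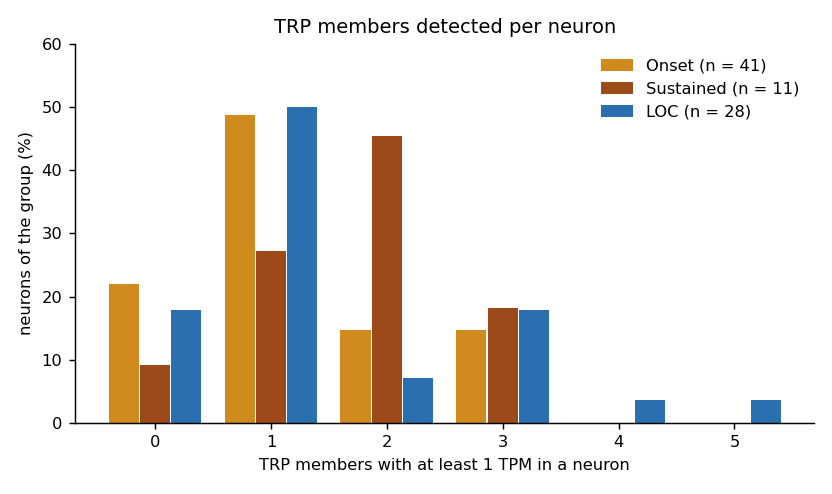
Percentage of Onset (41), Sustained (11) and LOC (28) neurons with 0 to 5 TRP members at 1 TPM or more. In Onset neurons and LOCs 1 member is most frequent (48.8% and 50%), in Sustained neurons 2 members (45.5%), and only LOCs reach 4 or 5.

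Members were also counted side by side in the same neuron. Trpm7 was present in 9 of 17 neurons with Pkd2l2 (52.9%), 9 of 16 with Trpm2 (56.3%) and 8 of 16 with Mcoln1 (50%), beside its share of 50% in all neurons. Mcoln1 and Pkd2l2 occurred together in 5 neurons, and Mcoln1 and Trpm2 in 4. The genes whose level over the 80 neurons was most like that of Trpm7, among 4800 genes detected in at least 20% of them, were Slc12a5, the neuronal chloride extruder KCC2 (rho = 0.41, 48 neurons), Senp3 (0.39, 26 neurons) and Dram2 (0.39, 17 neurons). These correlations are weak.

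The other 18 TRP genes in the table were rarely detected, and Trpc2 was not analysed here. Only Trpm3 reached 5% of the neurons, with 3 pLSOs and 3 LOCs (7.5%) and means of 0.15 and 2.50 TPM. Trpm4 and Pkd2 were detected in 3 pLSOs each, Trpv4 in 1 pLSO and 1 LOC, and 13 of the 18 were listed at 0 in all 80 neurons, among them the heat and cold receptor genes Trpv1 and Trpm8, and Trpa1.

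Genes that act with the members were summarised by list. Of 18 genes of metabotropic glutamate signalling and TRPC gating, 15 passed the detection filter, 5 were at least 2-fold higher in LOCs (among them Plcb1, Plcb4, Orai3 and Homer2) and 2 in pLSOs (Itpr1 and Homer1), with and without the highest neurons, beside 15.7% and 30.0% of all genes. The median log2 ratio of pLSO to LOC over the 15 was -0.67, beside 0.06 over all genes tested and 0.64 over the 6 members with a mean above 0 in both classes. Gnaq, the G protein subunit that activates phospholipase C, was detected in the most neurons of this list (37.5%). Plcb4, a phospholipase C, was detected in 28.8% of pLSOs and 50% of LOCs, but also in 4 of 8 negative controls. Some genes of the lists had a higher mean in the negative controls than in the class in which they were higher: Homer1 (637 TPM against 469 TPM in pLSOs), Homer2 (58.3 against 23.1 TPM in LOCs), Cnnm1 (26.9 against 18.4 TPM in pLSOs) and Cd38 (14.8 against 4.92 TPM in pLSOs), the last 3 through a single control each. The Homer1 mean of the controls also rested mostly on a single control and was 70.9 TPM without it. Itpr1, the calcium release channel of the endoplasmic reticulum, was detected in 24 pLSOs (46.2%) and 1 LOC (3.57%).

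Of the 13 endolysosomal genes listed beside Mcoln1, 11 passed, with 3 higher in pLSOs (Lamp1, Tfe3 and Vac14) and 1 in LOCs (Tfeb), which is near the shares of all genes. The proteases Ctsb (97.5% of neurons) and Ctsd (83.8%) were the most widespread, beside 20% for Mcoln1. The membrane protein Lamp1 was detected in 73.1% of pLSOs and 39.3% of LOCs. Of 11 magnesium transport genes listed beside Trpm6 and Trpm7, 9 passed, with 3 higher in pLSOs (Cnnm1, Slc41a3 and Nipa1) and 2 in LOCs (Slc41a2 and Nipa2) with and without the highest neurons, again near those shares. The most widespread were Nipa2 (18.8% of neurons) and Slc41a3 (17.5%), so none matched the 50% of Trpm7. Of 7 genes of ADP-ribose metabolism listed beside Trpm2, 6 passed, with 2 higher in pLSOs (Parp1 and Cd38) and none in LOCs once the highest neurons were left out, too few genes to set against the shares of all genes. Parp1, which builds ADP-ribose chains, was detected in 36.5% of pLSOs and 17.9% of LOCs, and Nudt5 in 30.8% and 28.6%.

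Several members are also known from glia and immune cells, so markers of those cells were summed per neuron on the rescaled measure. Both classes had a median of 1.5 of 9 microglial markers, and none of the 9 was at 0 in all neurons. Their sum was 0 to 20697 in pLSOs (median 458) and 0 to 15389 in LOCs (median 567). In the 16 neurons with Trpm2 the median microglial sum was 473, against 525 in the 64 without. As deposited, in TPM, it was 298 against 62.5, so the direction for Trpm2 depended on the scale. The other detected members went the same way on both scales. With and without these, the rescaled medians were 714 and 414 for Mcoln1, 612 and 449 for Pkd2l2, 567 and 280.2 for Trpm7, and 1907 and 468 for Trpc5. They were lower with than without Trpm6 (17.5 and 525), Trpc1 (14.4 and 587) and Trpv2 (404 and 512). The 6 oligodendrocyte markers had a median sum of 706 in pLSOs and 1266 in LOCs (ranges 0 to 45685 and 7.35 to 34897), and the 6 astrocyte markers of 3.14 and 5.10 (0 to 966 and 0 to 468). With and without a member, the median oligodendrocyte sums were 5187 and 832 for Trpc1 and 1898 and 783 for Mcoln1. These sums were also higher with Trpm2, Trpm6, Trpv2 and Trpc5. They were lower with Pkd2l2 (595 and 918) and Trpm7 (864 and 894). Of the 5 endothelial and pericyte markers, Kcnj8 was at 0 in all neurons and the median sum was 0 in both classes. In the negative controls the median sums were 613 for microglial, 11836 for oligodendrocyte, 28.0 for astrocyte and 0 for endothelial and pericyte markers. Each was at or above the median of both neuron classes. The part of such RNA in the TRP values was not tested.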

How the data were processed

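Full-length cDNA (Smart-seq2, Nextera XT) of 86 neurons and 10 negative controls was sequenced by the authors. Per the labels and methods, reads were trimmed (Trim Galore 0.4.2), aligned to mm10 with STAR, checked for duplicates (Picard 1.115) and counted per gene with featureCounts. The deposited values are TPM rounded to whole numbers, handled here as a score because they are neither counts nor exact TPM. Whether duplicates were removed is not given in the sources used here, and no molecular identifiers were used, so reads are not molecules. Gene symbols matched 37570 of 38887 identifiers; positions and exonic lengths are from Gencode vM21 (GRCm38).

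Detection was 1 TPM. Means are arithmetic, each also without the highest neuron; genes detected in at least 5% of 80 neurons (4 or more) were compared, 2-fold counting as a difference. Shares have exact Clopper-Pearson 95% intervals, and a share of 0 the limit of 3 cells. Step-derived row lengths were whole numbers in the first 1700 rows, not allowed to fall down the table. In later rows sorted gene lengths less 80 bases were calibrated on the values of 1 read in the 2 shallowest negative controls, in windows of 500 rows. Rescaling used genes of at least 200 bases. Totals of reads are estimates. The reading of steps and folds in early rows was tested on simulated data. Analyses used Python 3.11.15, NumPy 2.4.6, pandas 2.3.3 and SciPy 1.17.1.

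Members and gene lists were chosen with earlier results of these data known, and the members are those the study listed as expressed. The 8 libraries left out had a label that differed from their membership in the study's cluster means, or other values under the same name in its supplementary table. The text names the 9 members, other TRP genes detected in at least 5% of neurons, the most widespread 2 genes of each list and genes past 2-fold; Trpc6, Trpc7, Trpm4, Pkd2, Trpv4, Trpv1, Trpm8, Trpa1, Lamp1 and Itpr1 were singled out after their values were seen. Some items withheld for evaluation are not reported here.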

Additional observations from a re-analysis of the deposited data

Results flagged for a closer look

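Values above every negative control used were present in libraries that the comparisons left out. Mcoln1 had 4367 TPM in cell_39 and 2557 TPM in cell_54, the former above the highest neuron used (3037 TPM). Pkd2l2 had 302 TPM in cell_39, and Trpm2 had 43 TPM in cell_78, which corresponds to 1 estimated read. Trpm7 had 61 TPM in cell_54 and 48 TPM in cell_85. Trpv2 had 4 TPM in cell_54 and 17 TPM in the negative control NC6, each 2 estimated reads, so that 1 of the left-out controls held a TRP transcript that the 8 controls used did not.

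Among the 8 negative controls, Trpc5 at 4 TPM in NC2 stood apart from the other 7, which were listed at 0. With 7 values at 0, any value above 0 stands apart in this way, so its size and rarity cannot be judged from the gap.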

How the results depend on the processing

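The count of members at least 2-fold higher in pLSOs was 3, and became 5 without the highest neuron of each class, when Trpm7 and Trpc1 joined. The order of members by mean TPM was the least stable result: of 9 ranks, 1 was kept with means in estimated reads, 1 after rescaling to each gene's own length, and 4 with the share of neurons. The other 19 alternative values of the counts and of the members per neuron (all labelled libraries, other thresholds, added TPM, log2 means) stayed within 1.5 times the count or 1 SD of the mean. The mean number of members per neuron was higher in LOCs in the main setting but higher in pLSOs at 10 TPM (1.00 against 0.93). For single members, the log2 ratio of pLSO to LOC passed 1 for Mcoln1 with all labelled libraries (1.09) and for Trpm7 rescaled (1.23) or without the highest neurons (1.22), and fell to 0.76 for Trpm2 with log2 means. The cause was not tested. Without the highest neuron, 10 of 14 class means above 0 were lower by over 1.5 times. Among 72 alternative shares, 5 left the interval of the main share: Trpm7 in pLSOs (34.6%) and Trpc5 in LOCs (3.57%) at 10 TPM, and Trpm2 under both settings by estimated reads, which were chosen after the data had been seen. With no filter, 66.3% of genes passed 2-fold in either direction, and at a filter of 20% of neurons 36.1%, against 52.8%. No paired analysis was possible because the labels give no animal or pairing for the neurons, and no result comes from a test.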
